A study of Mus musculus with 4 samples.

Results

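The genes described here are those of the translation factors: the initiation factors that bring the ribosome to the start codon (symbols beginning with Eif and a digit) and the elongation factors that move it along the message (Eef and a digit). Members were taken by symbol from the deposited tables, by a rule that uses no measured value. Of 37583 features, 69 matched, with 67 symbols, since Eif4e3 and Eef2k each have 2 features. In each of 2 pairs of libraries, 62 of the 69 had at least 20 exon reads. Of the other 7, 5 had 0 reads in all 4 libraries (Eif4e1b, Eef1a2, Eif2c4, Eif2c5 and Eif2s3y), Eif4ebp3 had 3, 1, 2 and 2 reads, and the smaller Eef2k feature had 1 read in 1 library. The symbol pattern also takes the Eif2c genes, older symbols for the Argonaute genes, whose proteins carry small RNAs and are not initiation factors.

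Naive CD4+ T cells sorted from spleens of C57BL/6 mice were cultured for 24 h on plate-bound antibodies to CD3 and CD28. All 4 groups received IL-1β (10 ng/ml), IL-6 (10 ng/ml) and IL-23 (20 ng/ml) with antibodies to IL-4 and IFN-γ (10 µg/ml each), a condition the labels call aTh17. One group also received 1.5 µM DMAT and another 1 µM CX4945, both inhibitors of the serine/threonine protein kinase CK2, and the labels name a control for each. Each group was 1 library, the labels do not say how many mice gave the cells, and no age is given. The inhibitors differ in compound, dose and experiment, so a difference between them was not tested.

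Initiation begins when eIF2, carrying GTP and the initiator tRNA, joins the small ribosomal subunit with eIF1, eIF1A, eIF3 and eIF5. The cap-binding complex eIF4F (eIF4E, eIF4G and the helicase eIF4A) recruits the message, and eIF2B recharges eIF2 with GTP unless a stress kinase has phosphorylated eIF2. In elongation, eEF1A delivers aminoacyl-tRNAs and eEF2 drives translocation. T cells raise their protein synthesis strongly on activation, and CK2 is known to phosphorylate several of these factors, among them eIF2β, eIF5 and subunits of eEF1. RNA levels do not report such phosphorylation.

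The libraries held between 2056635 and 2772525 exon reads, of which 81.3% to 81.7% were unique. Markers of the CD4 T cell lineage (5 of 5 detected) summed to 1270 to 1446 CPM (reads scaled to a common library size). The 4 Th17 markers summed to 526 CPM in the control for DMAT and 114 with DMAT, and to 374 in the control for CX4945 and 140 with CX4945. Of 13 markers of CD8 T, B, myeloid, NK and erythroid cells, 7 had 0 reads in every library, and together they summed to 3.14 to 5.40 CPM. Their part in the results below was not tested. In these bulk cultures, fewer cells of a type and less RNA per cell cannot be told apart. The Y-linked Kdm5d, Uty and Ddx3y had 0 reads in all libraries and Xist had 1306 to 1970 CPM, and Eif2s3y, the Y-linked copy of Eif2s3x, likewise had 0 reads.

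Promoter sequences show a feature that the choice by symbol did not use. In the RefSeq promoter table (build GRCm38.p6), 53 of the 67 symbols were found, and the palindromic E-box CACGTG, letters bound by MYC and related factors, was searched in the 250 bases before each start. It was present in 11 of the 53 (20.8%), against 6.86% of all 27025 promoter genes and 10.6% of the 6905 that were also expressed here. The 53 were not limited to expressed members, and members alone were also found by older symbols. A gene counted if any of its annotated starts matched, with no adjustment for the number of starts. The same holds for the motifs below. The windows below, 40 bases each on the gene's strand with the E-box in capitals, come from members of the main role groups.
Eef2 (chr10:81176571-81176610, + strand): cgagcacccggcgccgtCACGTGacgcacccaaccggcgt
Eif4a1 (chr11:69672590-69672629, - strand): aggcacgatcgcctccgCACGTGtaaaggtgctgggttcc
Eif4e (chr3:138527187-138527226, + strand): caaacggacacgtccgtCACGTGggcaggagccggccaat
Eif4g1 (chr16:20672656-20672695, + strand): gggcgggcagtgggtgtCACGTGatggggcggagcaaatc
Eif1b (chr9:120492565-120492604, + strand): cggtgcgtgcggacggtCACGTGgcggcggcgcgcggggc
Eif3f (chr7:108934330-108934369, + strand): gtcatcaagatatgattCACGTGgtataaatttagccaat
The other members with the motif were Eef2k, Eif3k, Eif4h, Eif5a and Eif5a2. The median log2 ratio of these 11 was -0.02 in the DMAT pair and 0.06 in the CX4945 pair, beside -0.01 and 0.02 for the 38 fitted members without it. A match describes letters and not a bound site.

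A run of pyrimidines that begins with C at the transcription start (a C followed by at least 4 pyrimidines), the form of the 5′ terminal oligopyrimidine motif through which mTOR controls translation, was found at the annotated start of 3 of the 53 members (5.66%), against 3.01% of all promoter genes. Among expressed promoter genes the share was 3.09%. The run had to begin exactly at an annotated start, so one beginning a few bases away was missed. A member without a match is therefore not shown to lack the motif. Eif2c5, which had no reads, was one of the 3 matches. The other two are shown with the pyrimidine run in capitals, in 60 bases around the start.
Eif3f (chr7:108934385-108934444, + strand): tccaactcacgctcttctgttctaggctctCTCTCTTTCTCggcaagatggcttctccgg
Eif2s3x (chrX:94212622-94212681, - strand): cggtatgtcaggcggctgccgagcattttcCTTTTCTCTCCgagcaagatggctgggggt
The ETS letters CCGGAAGT, on either strand, were in 5 of 53 members (9.43%), close to the 8.04% of expressed promoter genes. TATAA between 40 and 16 bases before the start was in 0 of 53, against 1.93% of expressed promoter genes.

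The members ran from the most read feature of every library to genes with a handful of reads. Together they took 3.70% of exon reads in the control for DMAT (95% Clopper-Pearson interval 3.68% to 3.73%), 3.57% with DMAT, 3.80% in the control for CX4945 and 4.10% with CX4945 (4.08% to 4.13%). Without Eef1a1 the shares were 3.004%, 2.914%, 3.017% and 3.004%, so the higher share of the CX4945 library lay in Eef1a1. These intervals, and all those below, reflect counting error alone, because 1 library per group holds no spread between cultures or animals. The libraries also carry no molecular identifiers, so duplicate reads of 1 molecule cannot be recognised and the intervals may be too narrow. Per exon length, levels ranged from 0.47 CPM per kb of exon for an Eif4e3 feature to 4455 for Eef1a1. The order at the top was Eef1a1, then Eef2 (1423 to 1541), Eif5a, which is needed at stalling sequences such as proline runs (882 to 1030.1), and Eef1g (658 to 712). Eif4a1 (414 to 498) and Eef1b2 (434 to 467) came next, with overlapping ranges. The 13 eIF3 subunit genes lay between 48.4 and 323.

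**Figure D1:**
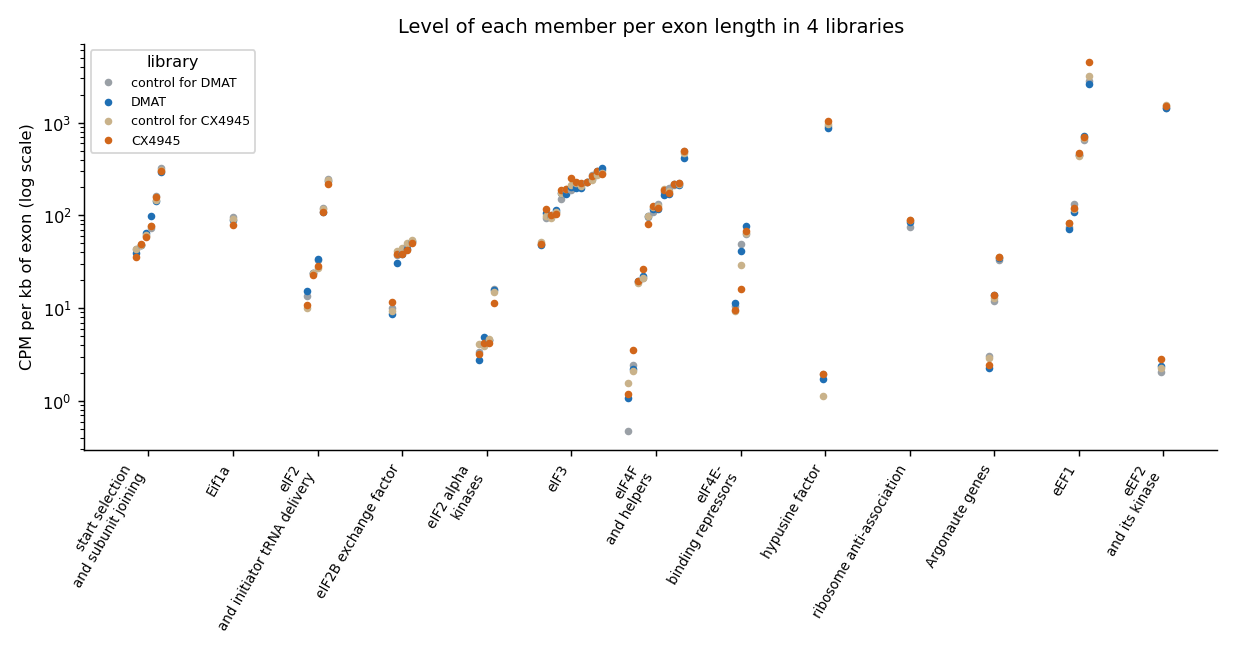
CPM per kb of exon (log scale) for the 62 members that passed the read minimum, grouped by role on the horizontal axis, with 1 point per library. Eef1a1 stands highest, at 2618 to 4455, and both Eif4e3 features, Eif5a2, Eef2k, Eif2c3, Eif2ak2, Eif2ak3 and Eif2ak4 lie lowest.

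The median member ratio lay near 0 with each inhibitor. The median log2 ratio over the 62 members was -0.02 with DMAT (quartiles -0.14 to 0.07) and 0.02 with CX4945 (-0.09 to 0.10), beside 0.01 and 0.00 over all features. The 2 control libraries differed from each other by a median of 0.01 over the members. Signs were mixed, with 17 members lower in both pairs, 18 higher in both and 27 in opposite directions. The median size of the log2 ratio was 0.097 with DMAT, 0.088 with CX4945 and 0.086 between the controls, against 0.175, 0.172 and 0.178 over all features. Ratios vary less at higher read counts. Among features with at least 1000 reads in the pair the sizes came closer, at 0.076 against 0.095 with DMAT and 0.075 against 0.088 with CX4945. At that minimum 23 of 37 members were below 0 with DMAT and 14 above (611 of 1161 features below), with a median of -0.05. With CX4945 13 of 35 were below and 22 above (398 of 861 features below), with a median of 0.02. A shift this small was not tested.

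Few members passed 1.5-fold, and those that did had few reads. With DMAT 1 of 62 members was at least 1.5-fold higher (background 4.56% of 9649 features) and 0 were lower (4.84%). The same member was the only one past 2-fold (2.36%). With CX4945, 2 were higher (4.01% of 9358), 1 was lower (4.21%) and 0 passed 2-fold (1.81%). Between the controls, 1 member was higher in the control for CX4945 (4.14%), 2 were lower (4.8%) and 1 passed 2-fold (2.26%). With at least 200 reads in the pair, 0 of 55, 0 of 53 and 0 of 54 members passed 1.5-fold in the 3 comparisons, where the background was 2.22%, 1.36% and 2.02%. Each arm of a ratio is 1 library, so no p-value is given for it and no replicate checks it.

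**Figure D2:**
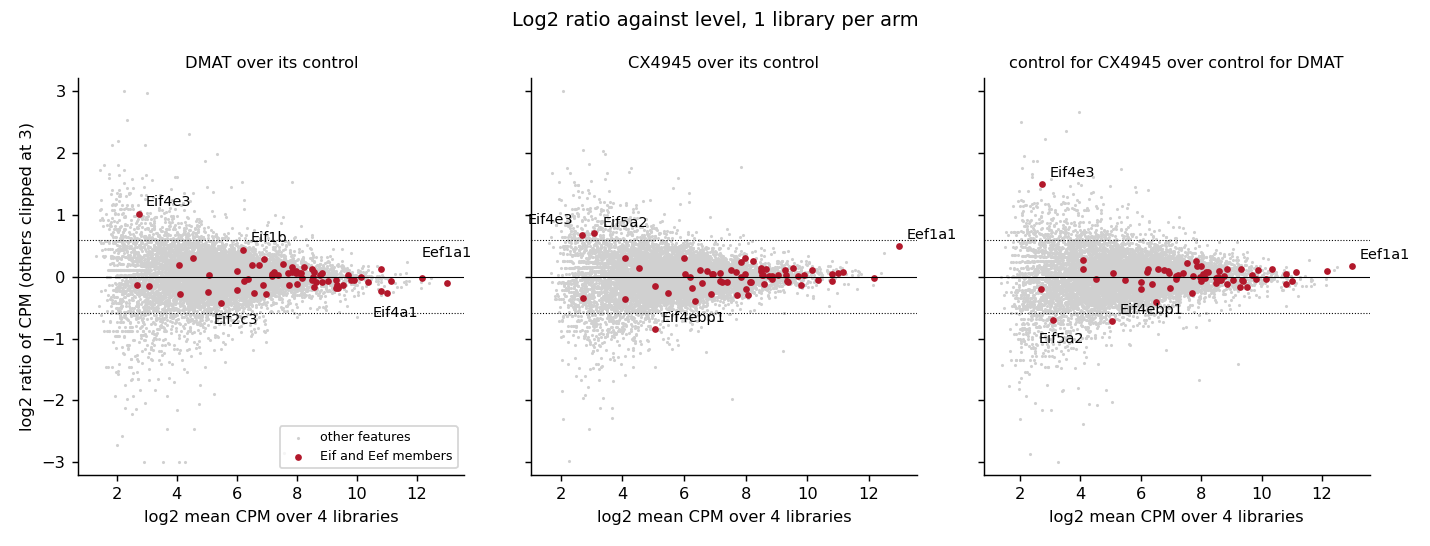
Log2 ratio of CPM (vertical) against log2 mean CPM over the 4 libraries (horizontal), for DMAT over its control, CX4945 over its control, and one control over the other. Red points are members, grey points all other features, dotted lines 1.5-fold. The members past 1.5-fold lie at the left, at low level, and Eef1a1 lies far right, at 0.50 with CX4945.

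In the joint fit of both pairs (edgeR's quasi-likelihood test, with the pair as a block and Benjamini-Hochberg adjustment over all 9629 features), 0 of the 62 members passed an adjusted p of 0.05, where 54 features passed in all (0.561%). DESeq2 called 0 members and 3 features in all. At an unadjusted p under 0.05, edgeR gave 3 members (Eif3f, Eif4ebp1 and Eif1ax), which is 4.84% against a background of 7.23%, and DESeq2 gave 0. The joint log2 fold changes lay between -0.48 and 0.29, and the lowest adjusted p was 0.627. The fit has 1 residual degree of freedom. Counting intervals in single pairs excluded 1 for 18 of 62 members with DMAT (5 above, 13 below), for 16 with CX4945 (8 and 8) and for 19 between the 2 controls (11 and 8). The intervals lay wholly within 1.5-fold for 53, 51 and 54 members in these comparisons. The same shares were not computed over all features, and intervals narrow as reads rise. These counts therefore do not set the members apart from other genes.

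**Figure D3:**
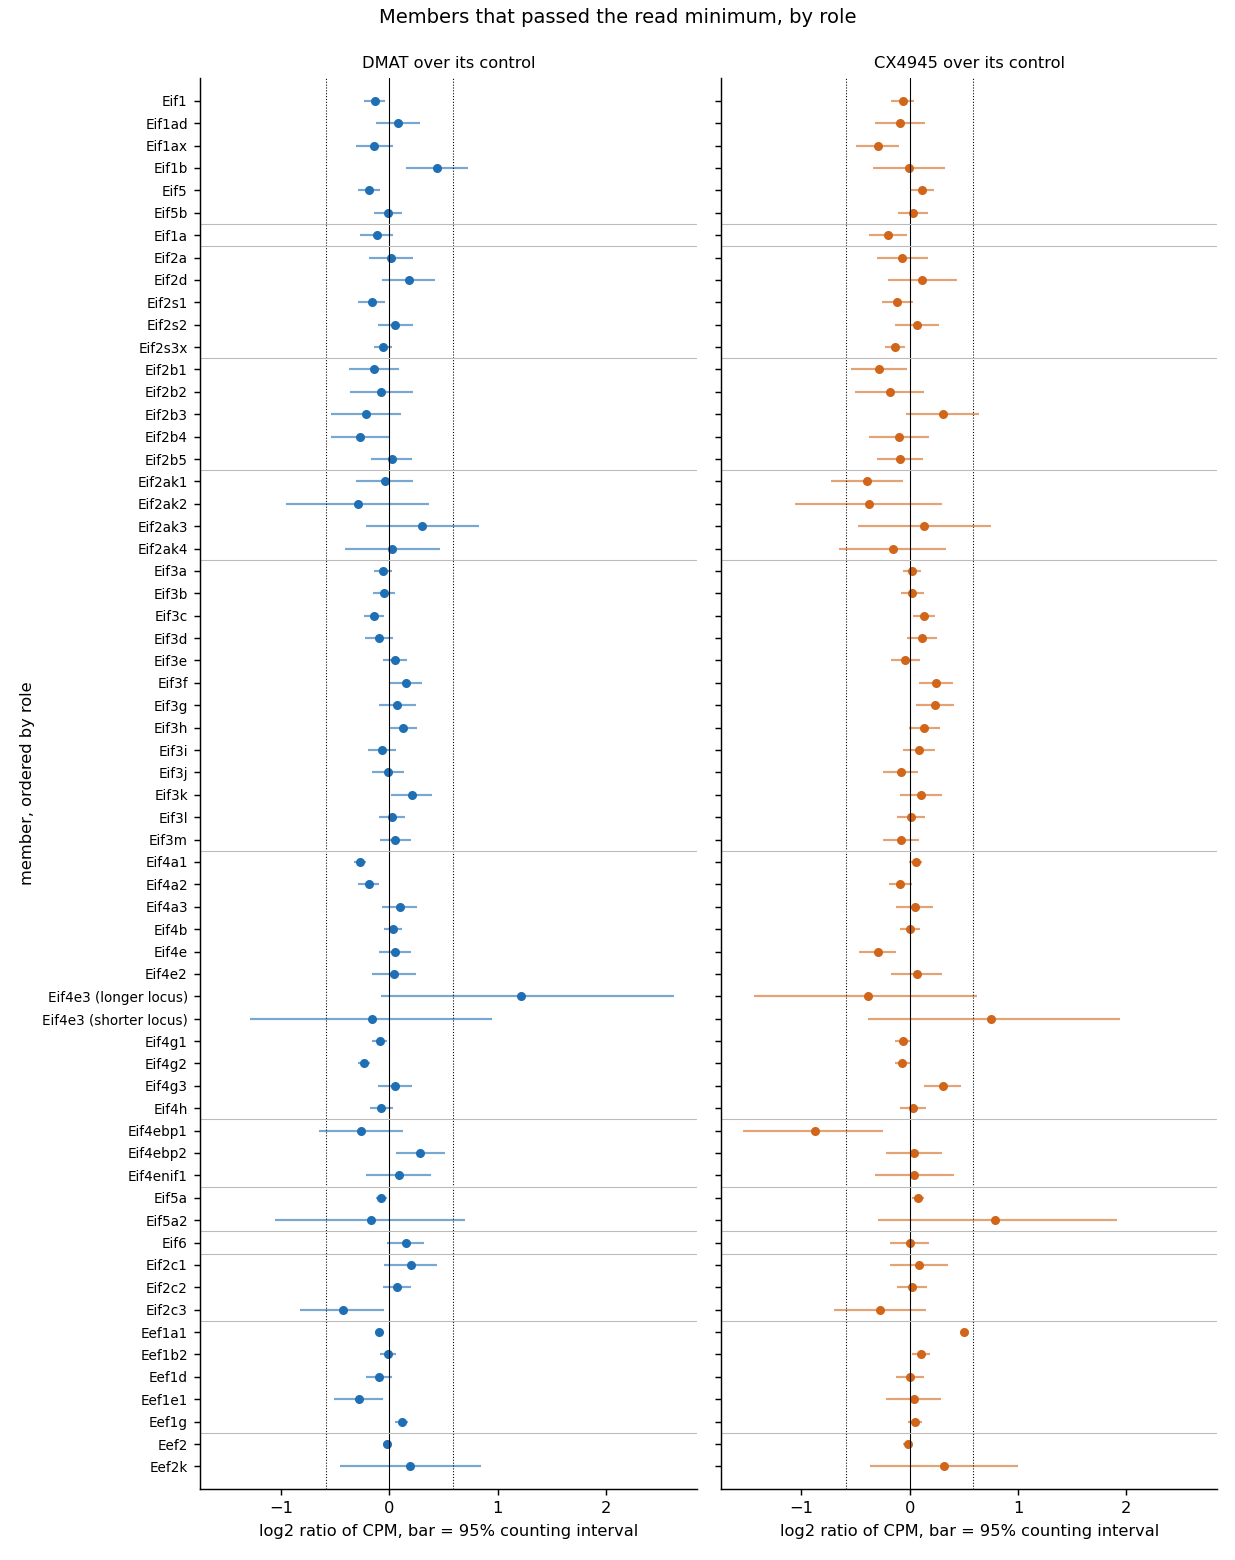
Log2 ratio of CPM, with no prior count, for each of the 62 members by role, DMAT over its control at left and CX4945 over its control at right. Bars are exact 95% counting intervals and dotted lines mark 1.5-fold. Most bars lie within 1.5-fold, and the widest bars, in both pairs, belong to the Eif4e3 features and Eif5a2.

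Among the elongation factors, Eef1a1 stood out in the CX4945 pair. Eef1a1 (chromosome 9, 78326256 to 78336958 in mm9) encodes eEF1A1, which brings aminoacyl-tRNA to the ribosome. It had 19404 reads in the control for DMAT, 16619 with DMAT, 17970 in the control for CX4945 and 22610 with CX4945, or 6988, 6527, 7866 and 11106 CPM. It was the most read feature of every library, and the CX4945 library was the highest of the 4. The ratio was 1.41 with CX4945 (95% counting interval 1.38 to 1.44) and 0.934 with DMAT (0.915 to 0.954), and the control for CX4945 stood 1.13-fold above the control for DMAT (1.10 to 1.15). Of 73 features with at least 5000 reads in the CX4945 pair, a minimum chosen after the values were seen, Eef1a1 had the highest log2 ratio (0.50), followed by Hspa8 at 0.39 and Pabpc1 at 0.26. It was not the highest of the 861 features with at least 1000 reads in that pair, which reached 1.77. Only 47.1% of its reads were unique, and the gene is known for its many processed pseudogenes, so reads could be shared with copies. From unique reads the log2 ratio was 0.50 in the CX4945 pair and -0.09 in the DMAT pair. Exon-exon junction reads, not limited to unique ones, gave a ratio of 1.42 with CX4945 (1.36 to 1.48). Processed pseudogenes are copied from spliced RNA, so junction reads cannot tell them from the gene. In the joint fit its log2 fold change was 0.20 ± 0.10 (SE; adjusted p = 0.703), which did not pass. Without the DMAT library, in a fit with no block that sets 1 inhibitor library against both controls, it was 0.58 and passed, and without the CX4945 library it was -0.19.

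Of the other elongation factors, Eef1e1 was furthest below its control with DMAT. Eef2, the translocase, had 4486, 4409.8, 4775 and 4709.7 CPM (control for DMAT, DMAT, control for CX4945, CX4945), with a log2 ratio of -0.02 in both pairs. Its kinase Eef2k, which inactivates eEF2, had 41, 43, 37 and 41 reads, with ratios of 1.14 (0.728 to 1.799) and 1.24 (0.778 to 1.99). Eef1b2 and Eef1d, exchange factors for eEF1A, stood at -0.01 and -0.09 in the DMAT pair and at 0.10 and 0.00 in the CX4945 pair on the log2 scale. Eef1g, a structural subunit of that exchange complex, stood at 0.11 and 0.05. Eef1e1, a component of the multi-tRNA synthetase complex, had 382 and 288 reads in the DMAT pair, a ratio of 0.822 (0.703 to 0.961), and 278 and 254 reads in the CX4945 pair, a ratio of 1.03. Eef1a2, the paralog of Eef1a1 in muscle and neurons, had 0 reads.

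Of the helicase and scaffold genes of eIF4F and their relatives, Eif4a1, Eif4a2, Eif4g1 and Eif4g2 were below their control with DMAT. In the joint fit, 0 of them passed. Eif4a1, the main helicase of eIF4F, had 5997 reads in the control for DMAT, 4572 with DMAT, 4692 in the control for CX4945 and 4348 with CX4945. The DMAT library was the lowest in CPM, with a ratio of 0.831 (0.80 to 0.864), while the CX4945 ratio was 1.04 (0.998 to 1.08). Only 19.7% of its reads were unique, and with unique reads the log2 ratio with DMAT was -0.21. Its paralog Eif4a2 had log2 ratios of -0.19 and -0.09. Eif4a3, a paralog that works in the exon junction complex, had 0.10 and 0.05. Eif4g2, a scaffold that lacks the eIF4E binding site, had 5503, 4291, 4150 and 3531 reads, lowest in CPM with DMAT, at 0.85 of its control (0.817 to 0.885), and 0.955 with CX4945. From exon-exon junction reads the DMAT and CX4945 ratios were 0.897 and 1.02 for Eif4g2, and 0.792 and 1.04 for Eif4a1. Eif4g1, the main scaffold, had log2 ratios of -0.09 and -0.06, the first a ratio of 0.942 (0.897 to 0.989). Its paralog Eif4g3, with 654, 622, 534 and 588 reads, had 0.05 and 0.30 (a ratio of 1.24 with CX4945, 1.10 to 1.39). Eif4b and Eif4h, cofactors of the helicase, lay between -0.07 and 0.03 in both pairs, and Eif4e2, a cap-binding relative of eIF4E, had 0.04 and 0.06.

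The cap-binding protein gene and a gene for its repressor were lower in the CX4945 library. Eif4e had 763, 725, 646 and 469 reads, or 275, 285, 283 and 230.4 CPM, so that 3 libraries were alike and the CX4945 library stood below them. The ratio was 0.815 with CX4945 (0.722 to 0.919) and 1.04 with DMAT (0.935 to 1.15). Eif4ebp1, which encodes a repressor that holds eIF4E until mTOR phosphorylates it, had 133, 102, 66 and 32 reads, or 47.9, 40.1, 28.9 and 15.7 CPM. Its ratio was 0.544 with CX4945 (0.345 to 0.842) and 0.836 with DMAT (0.64 to 1.09). The control for CX4945 was itself at 0.603 of the control for DMAT (0.442 to 0.816), so both libraries of one experiment lay below both of the other. Against the other control the DMAT log2 ratio was 0.46 and the CX4945 log2 ratio -1.56. The joint log2 fold change was -0.48 ± 0.21 (SE; adjusted p = 0.627). Eif4ebp2, its paralog, had 310, 347, 266 and 244 reads, with ratios of 1.22 with DMAT (1.04 to 1.43) and 1.03 with CX4945. Eif4enif1, which carries eIF4E into the nucleus, had log2 ratios of 0.09 and 0.04.

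**Figure D4:**
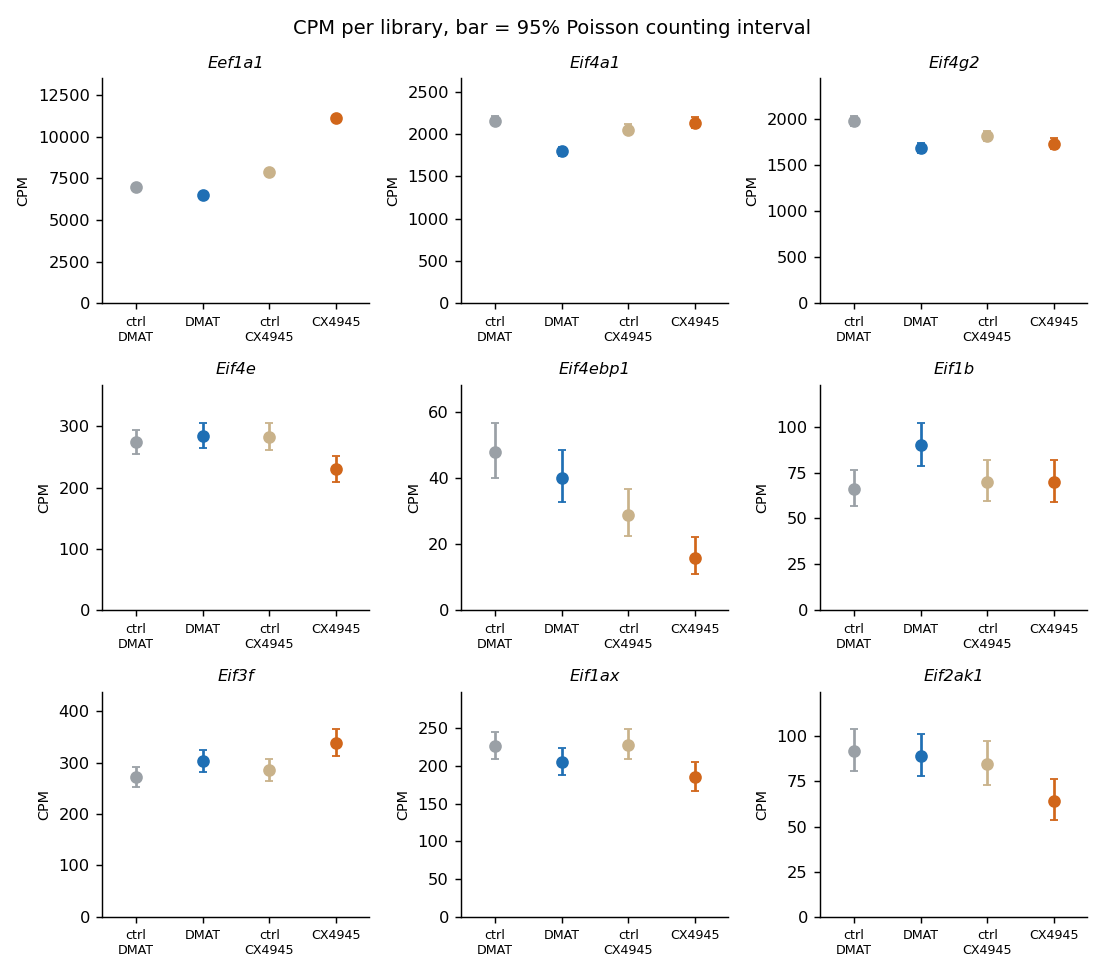
CPM in each library for 9 members, with 95% Poisson counting intervals and every axis starting at 0. Eef1a1 is highest and Eif4e, Eif1ax and Eif2ak1 are lowest in the CX4945 library, Eif4a1 and Eif4g2 are lowest in the DMAT library, and Eif4ebp1 is lower in both libraries of the CX4945 experiment.

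Both Eif4e3 features, which overlap on chromosome 6 and encode a cap-binding relative of eIF4E, held no unique reads. The larger (99207478 to 99616791 in mm9) had 8, 17, 22 and 15 reads and a log2 ratio of 1.02 with DMAT, but the control for CX4945 stood 1.50 above the control for DMAT, and against that control the DMAT value was -0.48. The smaller (99575129 to 99616765) had 17, 14, 12 and 18 reads and 0.67 with CX4945. Their intervals held 1 in both inhibitor pairs, and reads cannot be assigned to one or the other.

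The 6 genes grouped under start codon selection and subunit joining did not move as a group, with medians of -0.07 with DMAT and -0.04 with CX4945. Eif1a, described below, was not in that group. Eif1, which guards the start codon, had log2 ratios of -0.13 and -0.07, with 45.6% unique reads. From unique reads they were -0.23 with DMAT and 0.12 with CX4945, so the direction with CX4945 turned. Eif1b, its paralog, had 184 reads in the control for DMAT and 229 with DMAT (66.3 and 89.9 CPM), a ratio of 1.36 (1.11 to 1.66), and 160 and 142 in the CX4945 pair, a ratio of 0.996. The DMAT library was thus above the other 3, which lay between 66.3 and 70.0 CPM. Eif1ax, the X-linked gene of eIF1A, which promotes scanning, had 628, 523, 521 and 378 reads and was lower in both inhibitor libraries, at 0.908 (0.807 to 1.02) and 0.814 (0.711 to 0.931). Its joint log2 fold change was -0.21 ± 0.10 (SE; adjusted p = 0.66). Eif5, which makes eIF2 hydrolyse its GTP, was at 0.88 with DMAT (0.821 to 0.942) and 1.08 with CX4945, but the controls differed by as much (0.89). Eif5b, which joins the large subunit, was at 0.992 and 1.02. Eif1a, the autosomal gene of eIF1A, had log2 ratios of -0.12 and -0.20, and Eif1ad, which holds an eIF1A-like domain, 0.08 and -0.09.

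In the eIF2 group, medians were 0.02 with DMAT and -0.07 with CX4945. Eif2s1 (the α subunit) had log2 ratios of -0.16 and -0.11. Eif2s2 (β) had 0.06 and 0.07 from reads of which only 12.5% were unique. Eif2s3x (γ) had 2596, 2287, 2078 and 1683 reads, and ratios of 0.961 with DMAT and 0.909 with CX4945 (0.852 to 0.97). Eif2a and Eif2d, which can deliver tRNA to the ribosome without eIF2, had 0.02 and 0.18 in the DMAT pair and -0.07 and 0.11 in the CX4945 pair on the log2 scale. Eif2d also differed between the controls, lower in the control for CX4945 (log2 ratio -0.41). For the 5 genes of eIF2B, the exchange factor, the pairs had medians of -0.14 (DMAT) and -0.10 (CX4945), 3 of 5 were lower in both pairs and 0 were higher in both. Eif2b4 was at 0.828 with DMAT (0.687 to 0.997) and 0.932 with CX4945. Eif2b5, the catalytic subunit, was at 0.02 and -0.09 on the log2 scale. Eif2b3 had 140 and 154 reads in the CX4945 pair and a ratio of 1.23 whose interval held 1 (0.975 to 1.56), and 0.862 with DMAT (0.687 to 1.08). Eif2b1, a regulatory subunit, was at 0.906 with DMAT (0.771 to 1.06) and 0.823 with CX4945 (0.688 to 0.983). The lowest adjusted p in the eIF2B group was that of Eif2b1, 0.774 in the joint fit.

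The 4 kinases that phosphorylate eIF2α differ in the stress they sense. Eif2ak1, the heme-regulated kinase, had 255, 227, 193 and 131 reads, or 91.8, 89.1, 84.5 and 64.3 CPM, so that the CX4945 library was the lowest (0.762, 0.605 to 0.956). Eif2ak2, the double-stranded RNA sensor, had 48, 36, 48 and 33 reads. Eif2ak3, the endoplasmic reticulum kinase, had 60, 68, 48 and 47, and Eif2ak4, the amino acid sensor, had 93, 87, 80 and 64. At these counts the intervals of the last 3 kinases held 1 in both pairs. Atf4, a target of the pathway whose message is translated when eIF2α is phosphorylated, had 528, 366, 363 and 358 CPM. The control for DMAT was above the other 3 libraries, which were alike, so the low DMAT ratio (0.692) rests on that 1 control.

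The eIF3 subunits lay close to their controls in both pairs, with medians of 0.02 with DMAT and 0.09 with CX4945, and 5 of 13 higher in both, 1 lower in both and 7 opposite. Eif3f, a regulatory subunit, had 755, 772, 652 and 689 reads, or 272, 303, 285 and 338 CPM, with each inhibitor library above its own control, at 1.12 (1.01 to 1.23) and 1.19 (1.06 to 1.32). Its joint log2 fold change was 0.20 ± 0.09 (SE; adjusted p = 0.642). Eif3a, the largest subunit, had -0.06 and 0.02 on the log2 scale, and Eif3k had 0.20 and 0.10. The control for CX4945 stood 0.22 above the control for DMAT in Eif3k, a difference as large as that with DMAT. Eif3j had 7.02% unique reads and Eif3m 29.7%, and their log2 ratios from total reads lay between -0.08 and 0.06. From its few unique reads Eif3j had -0.53 with DMAT and 0.33 with CX4945. The subunits not named here lay between -0.14 and 0.24.

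Eif5a had 928, 882, 978 and 1030.1 CPM per kb of exon, at 0.95 with DMAT (0.916 to 0.986) and 1.05 with CX4945 (1.01 to 1.09). Eif5a2, its rarer paralog, had 27, 22, 13 and 20 reads, a ratio of 1.73 with CX4945 (0.817 to 3.78) and of 0.585 between the controls (0.277 to 1.17). Both intervals held 1, so no difference was detectable at this depth. The enzymes that make the hypusine residue of eIF5A, Dhps and Dohh, stood at -0.42 and -0.40 in the DMAT pair and at -0.04 and 0.02 in the CX4945 pair (log2), and neither passed the joint fit. Against the other control the DMAT values were -0.42 and -0.15. Eif6, which keeps the ribosomal subunits apart, had 204, 227, 243 and 243 CPM, with both libraries of the DMAT experiment below both of the CX4945 experiment. Of the Argonaute genes, Eif2c2, the slicing member, had 0.07 and 0.02, and Eif2c1 0.20 and 0.09. Eif2c3 had 141, 96, 111 and 82 reads, lower in both inhibitor libraries (0.742, 0.567 to 0.969, and 0.829, 0.615 to 1.11), with an adjusted p of 0.703.

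**Figure D5:**
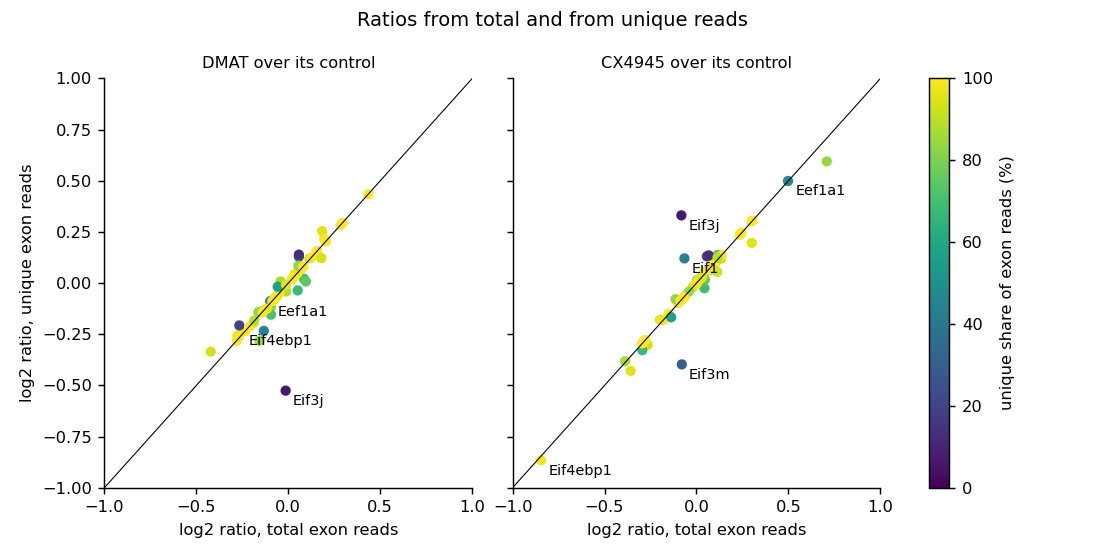
Log2 ratio from total exon reads (horizontal) against unique exon reads (vertical) for DMAT and CX4945 over their controls, coloured by the unique share of reads. The Eif4e3 features, with no unique reads, are not drawn. Most members lie on the line of equality, and Eif3j, Eif3m and Eif1, with few unique reads, lie away from it.

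Counting by unique reads changed the sign of 2 members with DMAT and 4 with CX4945. The median unique share was 96.5%, with 35 of 62 members at 95% or more and 8 under 50%.

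A chosen list of 4 members whose proteins are known CK2 substrates (Eif2s2, Eif5, Eef1b2 and Eef1d) may leave others out. Its medians were -0.05 (DMAT pair) and 0.08 (CX4945 pair) on the log2 scale, and 0 of 4 passed the joint fit. In lists of neighbouring pathway genes, 0 of 32 genes rose or fell in the joint fit. Medians with DMAT and CX4945 were -0.11 and -0.02 for 5 termination and recycling genes, -0.41 and -0.01 for the 2 hypusine enzymes, 0.07 and 0.03 for 4 poly(A)-binding genes, 0.10 and -0.15 for 6 mitochondrial translation factors, 0.07 and 0.03 for 10 genes of mTOR and MNK signalling, and -0.48 and 0.08 for 5 genes of the eIF2α stress response. In the last list the 2 controls differed by a median of -0.35. Pabpc1, the main poly(A)-binding protein, had log2 ratios of 0.14 and 0.26 (edgeR adjusted p = 0.475).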

How the data were processed

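RNA was sequenced from 4 cultures, 1 library per group. The deposited tables give the authors' read counts per feature as whole numbers with no normalization. Total exon reads were the main measure and unique exon reads an alternative. The submitters' processing notes name the build mm9 and the tool CASAVA 1.8.2. The aligner, annotation, counting rule and strand are not given in the sources used here, so overlapping and antisense genes cannot be separated.

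Features with at least 20 reads in a pair were kept for the pair ratios. The joint fit kept the 9629 features that passed edgeR's default read filter (filterByExpr) over the 2 arms, control and inhibitor. Its alternative minimums of 1 and 100 reads were sums over the 4 libraries. CPM used TMM factors (0.990 to 1.009; edgeR 4.0.16, R 4.3.3), and log2 ratios a prior count of 2. Ratio intervals are exact conditional Clopper-Pearson 95% intervals. A count of 0 allows up to 3 counts, 1.08 to 1.46 CPM. The joint fit took the pair, given by the titles, as a block. Its p-values rest only in part on a feature's own disagreement between the 2 pairs. That spread is drawn towards one shared by the fitted features (19.7 prior degrees of freedom against 1 residual). The labels do not describe the cultures and animals of the pairs, so the spread may be technical. The SE of the joint fit is the fold change divided by the square root of F. DESeq2 1.42.0 was an alternative.

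Named members were those called, past 1.5-fold, among the 3 highest or lowest per pair with at least 200 reads, the most read of each role group, or a paralog pair. Others are named to describe their group and were chosen after their values were seen. Members and lists were chosen with earlier results of these data known. Promoters come from RefSeq GRCm38.p6, and no mm9 coordinate was converted.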

Additional observations from a re-analysis of the deposited data

How the results depend on the processing

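Members called in the joint fit stayed at 0 without the pair block, with DESeq2, with RLE or library-total scaling, from unique reads, and with minimums of 1 or 100 reads. Leaving out 1 library at a time gave 0 to 1 call, the 1 being Eef1a1 without the DMAT library. Those fits have no block, and their lone library is assumed to vary like the others. Members past 1.5-fold with DMAT numbered 1, and 0 with unique reads, 2 at a minimum of 1 read, 0 at 200 reads and 0 against the mean of both controls. Against the other control there was also 1, but it was Eif2d (log2 ratio 0.59). With CX4945 they numbered 3, and 2 with unique reads, 0 at 200 reads and 1 against the mean of both controls. Against the other control there were also 3, not the same members. These were Eif4ebp1 (log2 ratio -1.56), the larger Eif4e3 feature (1.14) and the highly read Eef1a1 (0.67). Between controls they numbered 3, and 1 with unique reads and 0 at 200 reads. With unique reads the shares of exon reads were 3.46%, 3.35%, 3.53% and 3.72%. Over the alternatives run, the median log2 ratio of the members lay between -0.034 and -0.0069 with DMAT, 0.0060 and 0.023 with CX4945, and 0.0068 and 0.0099 between the controls.

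Joint log2 fold changes that changed sign when 1 library was left out ranged from -0.46 to 1.26 (larger Eif4e3 feature), -0.062 to 0.63 (smaller), -0.081 to 0.69 (Eif5a2), -1.30 to 0.038 (Eif4ebp1), -0.46 to 0.0077 (Eif2ak1), -0.27 to 0.025 (Eif4e), -0.18 to 0.26 (Eif2b3), -0.19 to 0.58 (Eef1a1), -0.12 to 0.075 (Eif3a), -0.24 to 0.021 (Eif4a1), -0.12 to 0.11 (Eif5a), -0.053 to 0.20 (Eif6) and -0.077 to 0.026 (Eef2). These ranges cover the named members alone. Of all 62 fitted members, 9 had another sign without the control for DMAT and 14 without the DMAT library. Without the control for CX4945 11 did, and without the CX4945 library 13. Eif5a, at 0.0005, also became -0.0011 under library-total scaling and -0.0047 from unique reads. Against the other control the larger Eif4e3 feature had -0.48 with DMAT. The cause was not tested. Over all features the joint fit called 54, and 1 without the block, 3 with DESeq2, 84 with RLE, 101 with library-total scaling, 108 with unique reads, 76 at 1 read, 8 at 100 reads, and 1 to 40 with a library left out. No paired analysis by replicate number was possible because each group has 1 library.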
